A study of Mus musculus with 4 samples.

Results

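The 10 genes described here encode receptors for dopamine (Drd1, Drd2, Drd4, Drd5), histamine (Hrh1, Hrh2, Hrh3) and adenosine (Adora1, Adora2a, Adora2b). They were taken by symbol, and all 10 were found among the 31735 gene rows that the 4 count tables share. The tables come from translating ribosome affinity purification (TRAP), in which tagged ribosomes are pulled down together with the RNA bound to them. The source was the rostral pons of adult, untreated control mice of the line Cbln2-EGFP/Rpl10a (NIDA172), in which cells that use the Cbln2 construct carry ribosomal protein L10a fused to EGFP. All 4 libraries were immunopurified RNA of this 1 group, so the results are levels within the pulldown, ratios between receptors and differences between replicates. Unpurified RNA was not analysed here, so no enrichment is given. Nothing in the labels ties the replicates to separate animals or to pools, and p-values cover only the spread between the libraries, which may be of technical origin.

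All 10 genes encode G protein-coupled receptors. Drd1, Drd5, Hrh2, Adora2a and Adora2b act through Gs or Golf and raise cyclic AMP. Drd2, Drd4, Hrh3 and Adora1 act through Gi or Go and lower it, and Hrh1 acts through Gq or G11 and phospholipase C. Dopamine and histamine reach their targets from neurons whose cell bodies lie mostly in the midbrain and the hypothalamus, while adenosine builds up outside cells as ATP is used. In the pons, histamine and adenosine are known for their part in arousal and sleep. Adora1 is a main target of caffeine.

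The libraries held 12731825 to 21140265 counts over gene rows. A level in CPM is the count of a gene per 1000000 gene counts of its library, so 1 count was worth 0.0473 to 0.0785 CPM. Where a gene had 0 counts, its level may still be as high as 3 counts, 0.142 to 0.236 CPM depending on the library, and such floors and counting intervals cover counting error only. The descriptions number replicates 3 and 4 as 2469 and 2470 and replicates 1 and 2 as 1666 and 1667, and these are called the second and the first library pair. No batch is named in the labels. The row Rn45s, named for the ribosomal RNA precursor, held 24.2% and 9.29% of the gene counts in replicates 3 and 4, against 1.68% and 1.61% in replicates 1 and 2. Its share lowers the CPM of every other gene in the library. All 6 neuron markers, among them Rbfox3, reached 1 CPM in all 4 libraries. The striatum expresses several of these receptors strongly, and of 8 markers of its projection neurons 6 reached 1 CPM throughout. Gpr6, a marker of those that carry Drd2, was near 0, at no more than 0.378 CPM in any library.

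Of the 10 receptors, 5 reached 1 CPM in all 4 libraries, beside 33.5% of all shared gene rows. Among the shared rows with an annotated exon length, which all 10 have, the share was 43.9%. They were Adora1, Drd5, Hrh3, Drd2 and Hrh2. Hrh1 and Drd1 had counts in every library and reached 1 CPM in 3 of 4. Adora2a had counts in 1 library, Adora2b had 1 count in all, and Drd4 had 0 counts in all 4. Among all shared rows 42.2% had no count in any library, and among those with an annotated exon length 30.8%. No stretch of 50 bases was shared between annotated transcripts of different members, so their reads could be told apart from each other. In bulk RNA, fewer cells of a type and less RNA per cell cannot be told apart, and this holds for every level below.

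**Figure D1:**
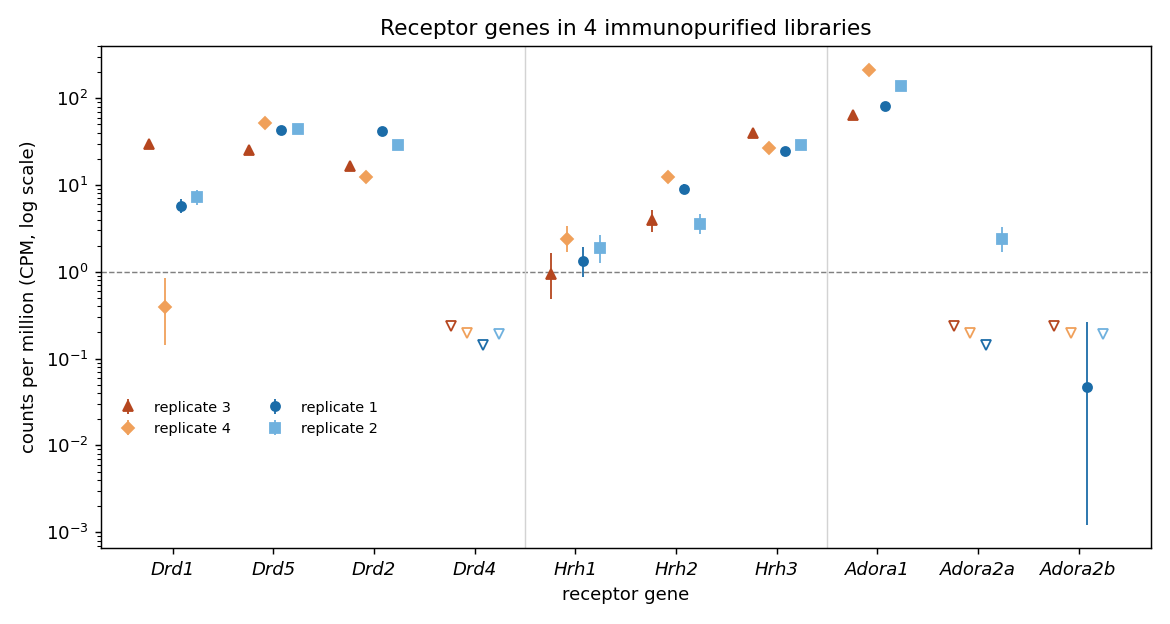
Levels of the 10 receptor genes in CPM on a log axis, with 1 point per library and its exact 95% Poisson interval. Open triangles mark libraries with 0 counts and stand at the floor of 3 counts, and the dashed line marks 1 CPM. Adora1 is the highest receptor in each library, Drd1 spans 0.392 to 30.0 CPM, and Drd4 stands at the floor in all 4.

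The adenosine receptors were nearly all Adora1. Adora1 (ENSMUSG00000042429.8, GRCm38 chromosome 1, 134199223 to 134235431, minus strand) encodes the receptor that damps transmitter release and lowers excitability. It had 64.2 and 211 CPM in replicates 3 and 4 and 82.5 and 140 CPM in replicates 1 and 2, from 818, 3235, 1744 and 2179 counts. The mean was 124.5 ± 66.2 CPM (SD, n = 4), with replicate 4 highest, replicate 3 lowest and the library pairs overlapping. Part of its exons, 1162 of 5785 bases, lies opposite the muscle gene Mybph, whose row had 0 counts in all 4 libraries. Whether the counting used strand is not given in the sources used here. Reads of that stretch could have been left out as ambiguous.

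Adora2a (chromosome 10, 75316877 to 75334784, plus strand) encodes the receptor that opposes dopamine in striatal neurons. It had 0 counts in replicates 3 and 4 and, in replicates 1 and 2, 0 and 37 counts, the last a level of 2.38 CPM (exact 95% Poisson interval 1.67 to 3.28). Adora2b (chromosome 11, 62248984 to 62266453, plus strand), a receptor of low affinity for adenosine, had 1 count, in replicate 1. Levels of different genes are set side by side after division of CPM by the union length of a gene's exons in kilobases. On this CPM per kb scale Adora1 made up 96.9% to 100% of the summed level of its family. Adora1 exceeded Adora2a at least 144-fold in replicate 3, 571-fold in replicate 4 and 308-fold in replicate 1, against the floor of 3 counts per library. In replicate 2 the ratio was 31.2. Over Adora2b the margin was at least 87.0-fold in each library, taking the floor also where it had 1 count.

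The dopamine receptors were led by Drd5 and Drd2, and Drd1 varied most. Drd5 (ENSMUSG00000039358.3, chromosome 5, 38319367 to 38322518, plus strand) has 1 exon and encodes a receptor of the same class as Drd1, with a higher affinity for dopamine. Its level was 25.5 and 52.5 CPM in replicates 3 and 4, and 43.1 and 43.8 CPM in replicates 1 and 2, with a mean of 41.2 ± 11.3 CPM (SD, n = 4). Replicate 3 lay below and replicate 4 above both libraries of the first pair. An antisense noncoding gene of the annotation covers 48.6% of this exon on the opposite strand and has no row in the count tables.

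Drd2 (ENSMUSG00000032259.8, chromosome 9, 49340627 to 49408177, plus strand) encodes the receptor that dopamine neurons also use to restrain themselves. It stood at 16.7 and 12.4 CPM in replicates 3 and 4 and at 41.7 and 29.2 CPM in replicates 1 and 2, a mean of 25.03 ± 13.2 CPM. The library pairs did not overlap for this gene.

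Drd1 (ENSMUSG00000021478.6, chromosome 13, 54051183 to 54055705, minus strand), the most abundant dopamine receptor gene of the striatum, had 382 and 6 counts in replicates 3 and 4 and 122 and 112 counts in replicates 1 and 2. These are 30.0 and 0.392 CPM in the second pair and 5.77 and 7.20 CPM in the first. The counting intervals of replicates 3 and 4 were 27.1 to 33.2 and 0.144 to 0.853 CPM, so the 76.6-fold gap between the members of 1 pair is far beyond counting error. The first pair lay between them. Replicate 3 held most of the level, and the mean of 10.8 CPM was 4.45 CPM without it. The summed striatal markers were 198 and 301 CPM in replicates 3 and 4 and 170 and 137 CPM in replicates 1 and 2, so the library with the least Drd1 had the highest sum. Pde10a and Adcy5, with means of 78.8 and 66.4 CPM, made up most of this sum in each library. The part of the cells with these striatal markers in the Drd1 level was not tested.

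Drd4 (chromosome 7, 141292006 to 141296464, plus strand), a Gi-coupled receptor, had no count in any library. Drd3, the remaining dopamine receptor gene and no member of the set, had 5 counts in replicate 4 and 0 in the others.

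The histamine receptors were led by Hrh3, the presynaptic receptor that restrains the release of histamine and other transmitters. Hrh3 (ENSMUSG00000039059.11, chromosome 2, 180099465 to 180104488, minus strand) had 39.4 and 26.8 CPM in replicates 3 and 4 and 24.4 and 29.2 CPM in replicates 1 and 2. Its mean of 30.0 ± 6.63 CPM (SD, n = 4) had the smallest range of the receptors with counts in every library, with a highest value 1.62 times the lowest. With Rn45s left out of the totals that range was 2.10-fold, and Drd5 had the smallest, at 1.72-fold, beside 2.06-fold on the first scale. Hrh2 (chromosome 13, 54192129 to 54236180, plus strand), a Gs-coupled receptor, had 3.93 and 12.3 CPM in replicates 3 and 4, and 9.03 and 3.60 CPM in replicates 1 and 2. One library of each pair was high and one low. Hrh1 (chromosome 6, 114397936 to 114483296, plus strand), the target of sedating antihistamines, was low throughout. It had 0.943 and 2.42 CPM in replicates 3 and 4 and 1.32 and 1.86 CPM in replicates 1 and 2, from 12 to 37 counts. Hrh4 and Adora3, the other receptors of these families outside the set, had 0 counts in all 4 libraries.

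**Figure D2:**
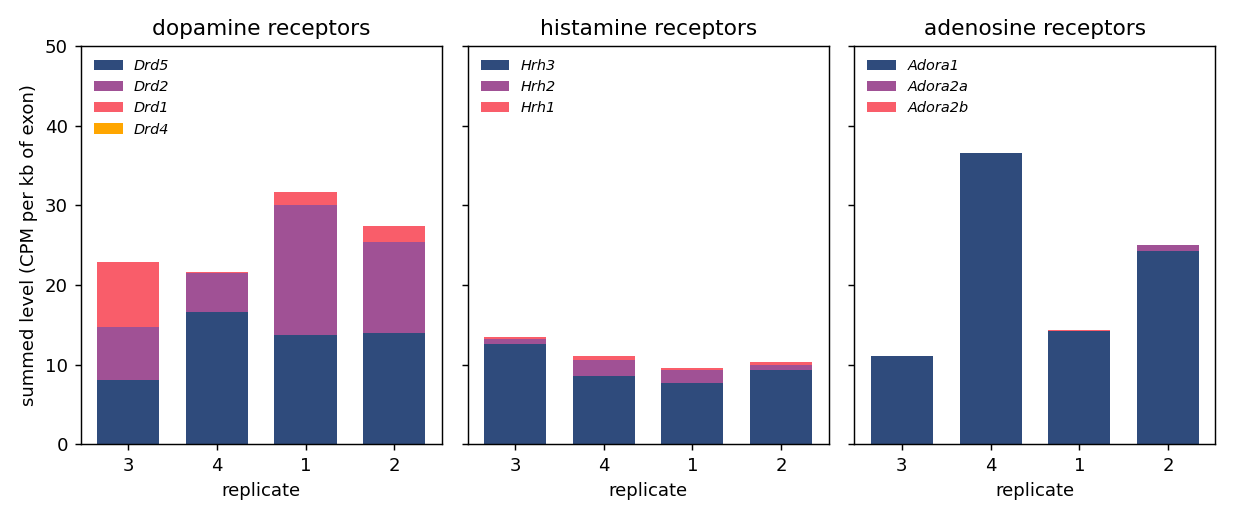
Summed level of each receptor family in CPM per kb of exon, by library, with replicates 3 and 4 left of replicates 1 and 2 and each bar divided by receptor. Adora1 fills the adenosine bars and Hrh3 most of the histamine bars, while the makeup of the dopamine bars differs between libraries.

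Plain ratios of CPM within a library do not depend on its total. The ratios here are given as log2 of CPM per kb with 0.5 CPM per kb added to both genes, so the total shifts them slightly. With Rn45s left out of the totals the mean log2 ratio of Hrh3 over Hrh1 was 3.61, beside 3.52. Hrh3 exceeded Hrh1 11.5-fold (log2 3.52 ± 0.47, SD, n = 4) and Hrh2 6.14-fold (2.62 ± 0.82), each in 4 of 4 libraries and by more than 2 SD. Hrh1 was below Hrh2 in 4 of 4 libraries, but within 2 SD (log2 -0.90 ± 0.51). Drd5 and Drd2 did not differ beyond their spread (log2 0.49 ± 0.83), with Drd5 ahead in 3 of 4 libraries and Drd2 in replicate 1. Drd1 was below Drd2 in 3 of 4 libraries (log2 -2.03 ± 1.61) and below Drd5 in 3 of 4 (-2.52 ± 1.99), and in replicate 3 the 3 stood close together at 8.27, 8.10 and 6.57 CPM per kb for Drd1, Drd5 and Drd2. Against Drd4, and its floor of 3 counts per library, Drd5 was at least 116-fold and Drd2 at least 84.1-fold higher in each library. Adora2a and Adora2b were both at or under the floor in 3 libraries, and no fold between them is given for those. With 4 libraries the two-sided exact sign-flip permutation test has 16 sign patterns, of which at least 2 are as extreme as the data, so it cannot reach a p of 0.05. A ratio with the same sign in all 4 libraries reached this smallest p (0.188 after Benjamini-Hochberg adjustment over the 12 ratios), and those of Drd1 and Drd5 to Drd2 and of Drd1 to Drd5 had p = 0.25 in the same exact test (0.273 adjusted).

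**Figure D3:**
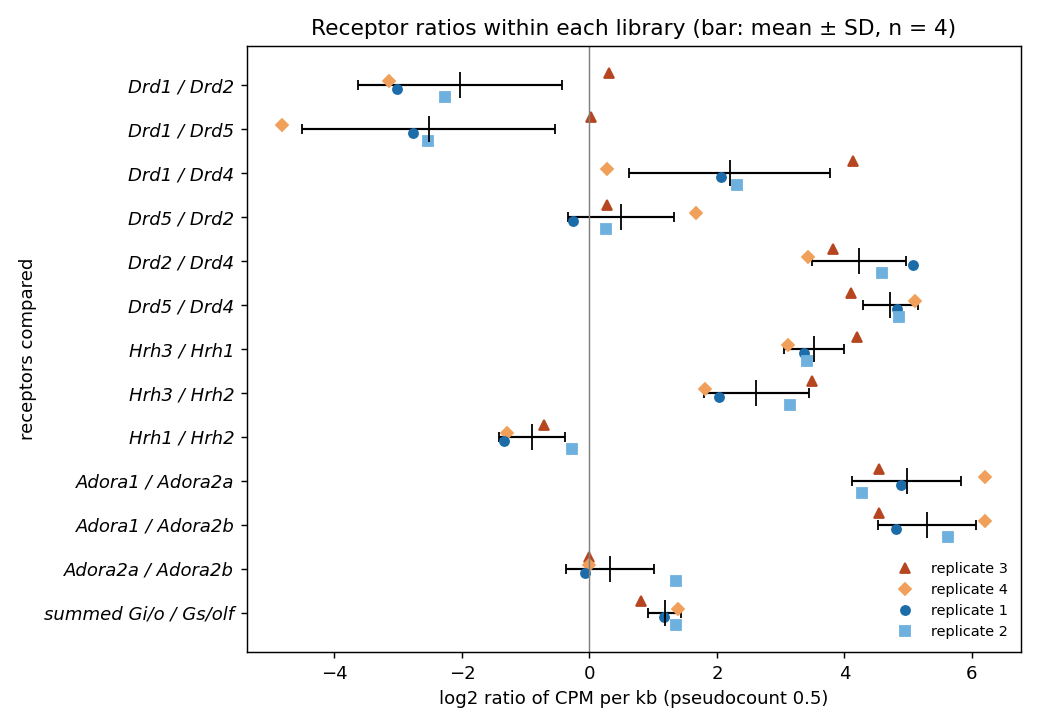
Log2 ratio of CPM per kb, with 0.5 added, for 12 pairs of receptors of a family and for the summed Gi/o over the summed Gs/olf receptors, with 1 marker per library and bars for the mean ± SD. The 2 ratios of Hrh3 lie above 0 in all 4 libraries, and those of Drd1 to Drd2 and Drd5 cross 0 through replicate 3. Ratios to Drd4, Adora2a and Adora2b are limited by the added 0.5.

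Across families, mean levels per kb ran from Adora1 at 21.5 ± 11.4 CPM per kb (SD, n = 4) through Drd5 at 13.1 ± 3.59, Drd2 at 9.83 ± 5.19 and Hrh3 at 9.52 ± 2.11. Drd1 followed at 2.99 ± 3.61, Hrh2 at 1.21 ± 0.71 and Hrh1 at 0.368 ± 0.14. For scale, the 10147 genes of known length at or above 1 CPM in every library had a median of 6.68 CPM per kb. No pair of neighbours in this order differed by more than 2 SD of its log2 ratio. Adora1 was above Drd5 in 4 of 4 libraries (log2 0.59 ± 0.45), and Hrh3 above Drd1 in 4 of 4 (2.10 ± 1.36). The leading receptor per kb was Hrh3 in replicate 3, Adora1 in replicates 4 and 2, and Drd2 in replicate 1. Of all 23131 genes with a length, 86.1% to 95.8% were below Adora1 in a library and 46.0% to 51.7% below Hrh1.

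The summed RNA level of receptors that lower cyclic AMP exceeded that of receptors that raise it. The summed Gi/o receptors (Drd2, Drd4, Hrh3 and Adora1) were at 30.2 and 49.9 CPM per kb in replicates 3 and 4 and at 38.4 and 45.0 in replicates 1 and 2. The summed Gs/olf receptors (Drd1, Drd5, Hrh2, Adora2a and Adora2b) were at 17.0 and 18.8 CPM per kb in replicates 3 and 4 and at 16.8 and 17.3 in replicates 1 and 2. The log2 ratio was 1.18 ± 0.26 (SD, n = 4), a 2.26-fold margin in 4 of 4 libraries, and the exact sign-flip test gave its smallest possible p. Adora1 made up 36.8% to 73.2% of the Gi/o sum in a library, and Drd5 47.6% to 88.4% of the Gs/olf sum. In replicate 4 Adora1 held 36.5 of the 49.9 CPM per kb. Without both Adora1 and Drd5, the most abundant receptor of each class, the log2 ratio was 2.16. Leaving out Adora1 alone was not run as an alternative. In replicate 4 the other Gi/o receptors with counts, Drd2 and Hrh3, had 4.87 and 8.51 CPM per kb. Together these lie below the Gs/olf sum of 18.8 there, so the margin in replicate 4 rested on Adora1. Elsewhere Drd2 and Hrh3 had 6.57 and 12.5 (replicate 3), 16.4 and 7.74 (replicate 1) and 11.5 and 9.30 CPM per kb (replicate 2). In those libraries they together exceeded the Gs/olf sum. These are sums of RNA levels and say nothing of the amount of receptor protein.

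The receptors differed in how steady they were. For each, the SD of log2(CPM + 0.5) over the 4 libraries was set beside that of all genes within 2-fold of its mean CPM. Drd1 had an SD of 2.10, above that of 94.4% of 3983 such genes. Adora1 had 0.77, above that of 79.2%, and Drd2 also 0.77, above that of 52.5%. Hrh3, at 0.30, had a higher SD than only 7.44% of 4219 genes, and Hrh1, at 0.44, than 2.75% of 2470. Drd5 had 0.44 and Hrh2 0.81, above those of 25.6% and 30.3% of their comparison genes. With Rn45s left out of the totals the SD of Hrh3 was 0.46, above that of 22.6% of its comparison genes, and that of Drd5 0.32, above that of 12.3%. Drd1 then stood at 2.22, above 95.9%.

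**Figure D4:**
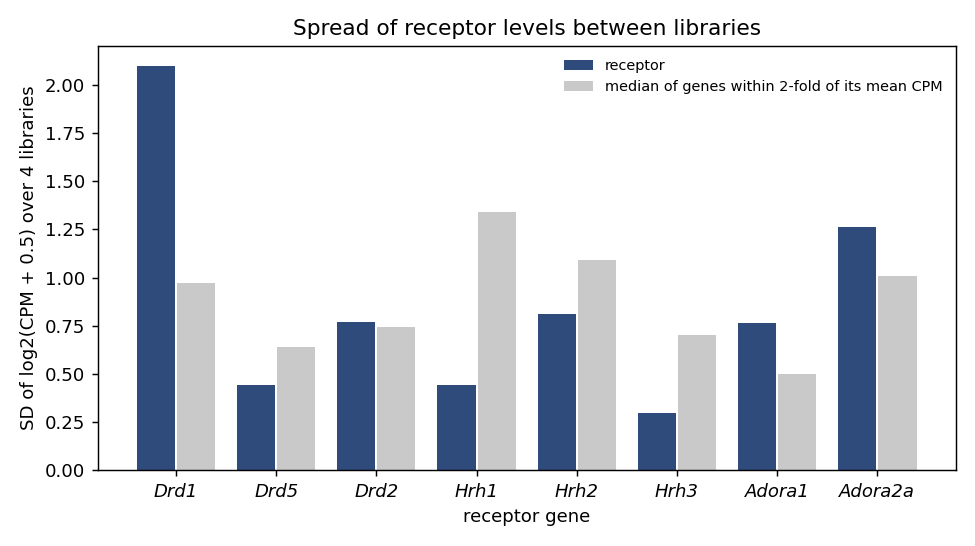
SD of log2(CPM + 0.5) over the 4 libraries for the 8 receptors with more than 3 counts in all, beside the median SD of genes within 2-fold of the receptor's mean CPM. Drd1 stands at 2.10 beside a median of 0.97, and Hrh3 at 0.30 beside 0.70 (0.46 with Rn45s left out of the totals).

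Adora1, Drd5 and Hrh1 ranked the libraries alike, with replicate 4 highest, then replicates 2, 1 and 3. With Rn45s left out of the totals Drd5 and Hrh1 kept this order, while Adora1 had replicate 1 lowest, at 83.9 CPM beside 84.8 CPM in replicate 3. The summed level of the 8 astrocyte markers had the order of Drd5 and Hrh1 on both scales, at 448 and 2019 CPM in replicates 3 and 4 and 1225 and 1446 CPM in replicates 1 and 2. Of these markers 3 of 8 had that order on their own, and 7 of 8 reached 1 CPM throughout. The 7 oligodendrocyte markers summed to 414 and 2390 CPM in replicates 3 and 4 and 1426 and 1730 CPM in replicates 1 and 2, again in that order, which 2 of 7 had on their own. Of these, 6 of 7 reached 1 CPM throughout. Hrh2 had replicate 4 highest, then replicates 1, 3 and 2. The 6 microglia markers, of which 1 reached 1 CPM throughout, summed to 6.99 and 34.3 CPM in replicates 3 and 4 and 20.3 and 2.70 CPM in replicates 1 and 2, and 1 of 6, Csf1r, had the order of Hrh2. The 7 catecholamine neuron markers, of which 5 reached 1 CPM throughout, summed to 93.0 and 350 CPM in replicates 3 and 4 and 93.7 and 42.9 CPM in replicates 1 and 2, and 2 of 7 had that order. With Rn45s left out of the totals this sum had replicate 3 above replicate 1 and no longer matched Hrh2, while the microglia sum still did. The order of Drd2 was that of 1 of the 6 neuron markers, Snap25, which made up 67.4% to 79.3% of their sum in a library. No marker of these 5 lists was at 0 in all 4 libraries. In all 91 orders were compared, of 7 receptors with 13 measures, which were the marker sums, the Rn45s row and the library total. Of these 9 were the same, and 6 of the 9 held with Rn45s left out. The matches are not separate events, as Drd5, Hrh1 and Adora1 shared 1 order, and so did the astrocyte and oligodendrocyte sums. Only 24 orders of 4 libraries are possible. The part of these cells in the receptor levels was not tested.

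No receptor passed the test between the library pairs. Over all 13905 genes tested with edgeR's quasi-likelihood test, 1.27% differed between the second and the first pair at an adjusted p under 0.05. Of the receptors, 7 passed the filter on low counts, and 0 of 7 were called, with 0 at an unadjusted p under 0.05. DESeq2 also called 0 of 7, beside 9.6% of all genes it tested, with 1 of 7, Drd2, at an unadjusted p of 0.0481. Drd2 had the largest shift relative to its error, with means of 14.6 CPM in the second pair and 35.5 CPM in the first (log2 -1.25, SE 0.67, edgeR adjusted p = 0.381). It was the only 1 of the 7 whose pairs did not overlap, as was the case for 47.5% of all genes tested. Drd1 had 15.2 CPM in the second pair and 6.49 CPM in the first (log2 1.35, SE 1.38, edgeR adjusted p = 0.694), and without replicate 3 the log2 change was -4.13. Adora1, Drd5, Hrh1, Hrh2 and Hrh3 had log2 changes between -0.17 and 0.34, and each changed sign without at least 1 library. A p that misses the threshold with 2 libraries on each side does not show that the pairs were alike.

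Some cell type markers also differed between the pairs. The cerebellum adjoins the pons. The 7 markers of its granule cells, 6 of them at 1 CPM throughout, summed to 129 and 226 CPM in replicates 3 and 4 and to 528 and 1191 CPM in replicates 1 and 2. Their median log2 change was -2.03, and edgeR called 2 of 7, both lower in the second pair, among them Neurod1 (log2 -3.75, SE 0.57, edgeR adjusted p = 0.0127). The 6 Purkinje cell markers, all at 1 CPM throughout, summed to 731 and 682 CPM in replicates 3 and 4 and to 1451 and 2488 CPM in replicates 1 and 2. Their median log2 change was -0.88, and 2 of 6, Car8 and Itpr1, were called, both lower. The list was not uniform. Ppp1r17 had a log2 change of -2.48, Slc1a6 of -0.02, Calb1 of 0.57 and Pcp2 of 1.85, none of them called by edgeR. Of the 6 neuron markers 1, Nefm, was called, lower in the second pair (log2 -2.56). Their sums were 10425 and 10292 CPM in replicates 3 and 4 and 23415 and 21322 CPM in replicates 1 and 2. Snap25, at 67.4% to 79.3% of the sum, was not called (log2 -1.17, edgeR adjusted p = 0.0553). Syn1 and Slc17a6 had log2 changes of -0.77 and -0.46, Rbfox3 of -0.05 and Map2 of 0.28, none of them called. DESeq2 called 5 of 7, 3 of 6 and 2 of 6 of these lists, all lower. The catecholamine neuron markers went the other way, with a median log2 change of 1.33 over the 6 tested. Of these edgeR called Th, and DESeq2 called Th and Dbh, all higher in the second pair. Dbh had 2.20 and 61.1 CPM in replicates 3 and 4, and 3.36 and 1.03 CPM in replicates 1 and 2. Of the 8 astrocyte markers edgeR called 0 and DESeq2 called Aqp4, lower (log2 -1.95). The part of all these cells in the pair differences of Drd2, Th, Caly, Adrbk1 and Gnal was not tested.

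**Figure D5:**
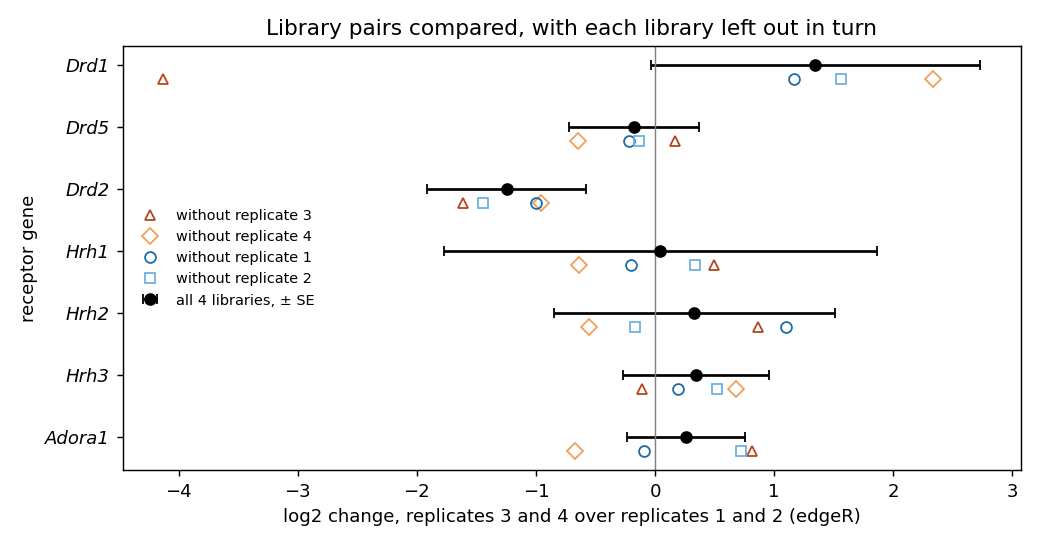
Log2 change of the 7 tested receptors in replicates 3 and 4 over replicates 1 and 2 from edgeR, with its SE (filled) and with each library left out in turn (open). Drd2 lies below 0 in every fit, and the 6 others cross 0 in at least 1.

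Genes that supply and clear the transmitters give the setting of these receptors. Of 8 dopamine genes, 5 reached 1 CPM in all 4 libraries. The breakdown enzyme genes Maoa and Maob were at 70.9 ± 15.4 and 34.8 ± 22.7 CPM (SD, n = 4). The dopamine transporter gene Slc6a3, which marks dopamine neurons, had 0 counts in all 4 libraries. Th, which makes the precursor of dopamine and noradrenaline, had 34.5 and 42.5 CPM in replicates 3 and 4 and 2.84 and 0.643 CPM in replicates 1 and 2. It was the 1 gene of the 7 tested that was called, higher in the second pair (log2 4.47, SE 0.93, edgeR adjusted p = 0.037). Drd2 was lower there on average without passing the test. The list had a median log2 change of 0.55, beside -0.03 over all genes tested.

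Of 5 histamine genes, 2 reached 1 CPM in all 4 libraries, and both take part in clearing it. Hnmt, which inactivates histamine, was at 8.12 ± 6.06 CPM and the transporter gene Slc29a4 at 12.2 ± 10.6 CPM (SD, n = 4). Hdc, which makes histamine, had 5.66 and 0.131 CPM in replicates 3 and 4 and 0 and 0.964 CPM in replicates 1 and 2. Aoc1, which also degrades histamine, and the transporter gene Slc22a3 had counts in replicate 4 alone, at 3.66 and 3.26 CPM. The mast cell genes Cpa3, Tpsb2 and Cma1 had 0 counts in all 4 libraries, and the fourth marker of that list, Kit, which neurons also express, had 17.8 to 65.7 CPM. Of the 3 genes of the histamine list that edgeR tested, 0 were called, with 0 at an unadjusted p under 0.05, and DESeq2 called 0 of 5. Their median log2 change was 2.01.

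Of 13 adenosine genes, 4 reached 1 CPM in all 4 libraries. Adk, the kinase that removes adenosine inside cells, had 16.7 and 8.10 CPM in replicates 3 and 4 and 4.87 and 27.8 CPM in replicates 1 and 2. Nt5e, which makes adenosine outside cells, had 0.628 and 1.96 CPM in replicates 3 and 4 and 5.82 and 3.54 CPM in replicates 1 and 2. The equilibrative transporter gene Slc29a1 was at 5.64 ± 1.16 CPM (SD, n = 4) with replicate 4 lowest, while its relative Slc29a2 had 2.51 and 36.8 CPM in replicates 3 and 4 and 0.662 and 0 CPM in replicates 1 and 2. Nt5c1a, a cytosolic nucleotidase, had 6.20 and 6.14 CPM in replicates 3 and 4 and 0.189 and 0 CPM in replicates 1 and 2. Ahcy, which releases adenosine from S-adenosylhomocysteine, was at 5.55 ± 4.67 CPM, and the transporter gene Slc28a2 had 0 counts throughout. Of the 10 genes edgeR tested, 0 were called and 2 had an unadjusted p under 0.05, with a median log2 change of 1.05. DESeq2 called 3 of 11, with Slc29a2 (DESeq2 adjusted p = 0.00136) and Nt5c1a (DESeq2 adjusted p = 0.0135) higher and Entpd2, an ectonucleotidase gene, lower in the second pair (DESeq2 adjusted p = 0.013).

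All 12 genes of receptor signalling reached 1 CPM in all 4 libraries. Gnal, the stimulatory G protein alpha subunit that serves Drd1 and Adora2a in the striatum, was at 624 ± 264 CPM, and Ncs1, a calcium sensor that binds Drd2, at 184 ± 58.3 CPM (SD, n = 4). Gnal had means of 398 CPM in the second pair and 850 CPM in the first (log2 -1.08, SE 0.30, edgeR adjusted p = 0.0921), and DESeq2 called it lower in the second pair (adjusted p = 0.0205, DESeq2). Ppp1r1b, which encodes the striatal phosphatase inhibitor DARPP-32, was low at 5.75 ± 3.29 CPM. Between the library pairs edgeR called 2 of the 12, both higher in the second. They were Caly, a vesicle protein gene first described as a partner of Drd1, with means of 77.8 CPM in the second pair and 13.3 CPM in the first (log2 2.59, SE 0.56, edgeR adjusted p = 0.0458), and Adrbk1, the receptor kinase gene now named Grk2, with 98.4 CPM in the second pair and 18.2 CPM in the first (log2 2.44, SE 0.49, edgeR adjusted p = 0.0353). Caly was not called without replicate 3 (adjusted p = 0.196, edgeR), nor Adrbk1 without replicate 4 (adjusted p = 0.0511, edgeR). The list had a median log2 change of 0.47.

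The genes most like the leading receptor of each family were sought among those with a mean of at least 10 CPM, by the root mean square difference of their centred log2(CPM + 0.5) values over the 4 libraries. For Adora1 they were Fryl, Emc6 and Tln1, at 0.030, 0.032 and 0.040. For Drd5 they were Usp24, Fndc5 and Coro2a, at 0.019, 0.036 and 0.038, and for Hrh3 they were Pptc7, Akirin1 and Gde1, at 0.019, 0.028 and 0.038. With 4 libraries and 8846 candidates many genes lie close, as 57, 265 and 195 candidates were within 0.2 of Adora1, Drd5 and Hrh3.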

How the data were processed

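The deposited tables hold raw read counts per gene symbol, 1 table per immunopurified library, with no normalization by the authors. Per the submitters' processing notes, STAR 2.0.0e and HTSeq were used on mm10. The annotation, strand setting and counting options are not given in the sources used here. The 5 HTSeq summary rows and a row named unknown with 0 counts were left out. Unassigned reads outside any feature made up 24.0% to 30.1% of a library total. CPM used the total of all gene rows of a table (32657 rows in replicates 3 and 4, 32531 in replicates 1 and 2), and fits used the 31735 rows shared by all. Exon lengths and coordinates are from GENCODE M21 (GRCm38, the assembly of mm10). The library pairs were taken from the library numbers in the descriptions, where replicate 4 carries the replicate label of replicate 3; its title was followed. The counts of any 2 libraries differed by more than sampling noise, with a chi-square per degree of freedom of 132 to 505.

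The pairs were compared with edgeR 4.0.16 (quasi-likelihood F test after filterByExpr and TMM scaling, with p-values adjusted by Benjamini-Hochberg over all genes tested and a threshold of 0.05), checked on simulated data, with DESeq2 1.42.0 as an alternative. Ratios were tested with exact sign-flip permutation tests in Python 3.11.15. The members and lists were chosen with earlier results of these data known. Named beside the members are, per pathway list, the 3 highest genes per kb, called genes, genes at 0 throughout, and Th, Slc6a3, Hdc, Nt5e, Adk, Slc29a1 and Ppp1r1b, and for each family the 3 genes most like its leading receptor. Of the genes this rule names, 1 is not reported here. Further names, such as markers, were chosen after their values were seen. Sequences of the receptors are not used here.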

Additional observations from a re-analysis of the deposited data

Results flagged for a closer look

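In 8 of 46 sets of 4 values 1 library stood apart from the other 3 by most of the range. Chance alone does this in about 1 in 20 sets, but a gene with counts in 1 library only is always set apart this way, as 4 genes were. Without those genes and their ratios, 3 of 39 sets were set apart. Among the receptors, Adora2a had 2.38 CPM in replicate 2 and 0 elsewhere, which also set its log2 ratio to Adora2b apart there, at 1.35. Adora2b had 0.0473 CPM, a single count, in replicate 1 and 0 elsewhere.

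Drd3 had 0.326 CPM in replicate 4 and 0 elsewhere. Among the genes of supply and breakdown, Hdc had 5.66 CPM in replicate 3 beside at most 0.964 CPM in the others. In replicate 4, Aoc1 had 3.66 CPM beside 0 in the others, Slc29a2 had 36.8 CPM beside at most 2.51 CPM, and Slc29a1 had 3.92 CPM beside at least 6.05 CPM. The part of library quality in these values was not tested.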

How the results depend on the processing

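No paired analysis was possible because the series has 1 group. Under another total and TMM scaling each mean receptor level moved by less than 1 SD between libraries. Leaving out replicate 3 took the mean of Drd1 to 4.45 CPM, against 10.8 CPM in all 4, and leaving out replicate 2 took that of Adora2a to 0, against 0.595 CPM. The spread and the order of the libraries without Rn45s in the totals were added after seeing the data. The receptors at 1 CPM in all 4 libraries numbered 5 to 6 under every alternative, with Hrh1 or Drd1 joining. The within-family and coupling ratios kept their direction under every alternative but for Adora2a over Adora2b, whose log2 ratio was -0.024 without replicate 2 and up to 0.45 with another library left out. No alternative for the coupling ratio left out Adora1 alone, and without it the direction would not hold in replicate 4. The genes called between the library pairs numbered 176, but 1386 with DESeq2, 875 with no filter and 389 to 699 with 1 library left out, when the lone library of a pair is assumed to vary like the others. The cause was not tested. The receptors called stayed at 0 in each of these. With 1 library left out, the log2 change between the pairs ran from -4.13 to 2.33 for Drd1, -0.65 to 0.17 for Drd5, -0.63 to 0.49 for Hrh1, -0.55 to 1.10 for Hrh2, -0.11 to 0.68 for Hrh3 and -0.67 to 0.82 for Adora1. Caly was not called with a filter of 1 CPM in 2 libraries (edgeR adjusted p = 0.0501). Ratios to Drd4, Adora2a and Adora2b are set by the added 0.5. Depth limits Hrh1, with 12 to 37 counts in a library, and the receptors at or near 0.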

Other observations

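Drd1 and Drd5, the genes of the Gs-coupled dopamine receptors, added up to nearly the same level in every library, although Drd1 alone varied 76.6-fold. Their sum, looked at after the values were seen, was 55.5 and 52.9 CPM in replicates 3 and 4 and 48.9 and 51.0 CPM in replicates 1 and 2, so the highest was 1.14 times the lowest. With Rn45s left out of the totals it was 73.3 and 58.3 CPM in replicates 3 and 4 and 49.7 and 51.9 CPM in replicates 1 and 2, and the highest was 1.47 times the lowest. The evenness thus depends on that row. On the first scale Drd1 gave only 0.392, 5.77 and 7.20 CPM of the sum in replicates 4, 1 and 2, which was mostly Drd5 there. In replicate 3 Drd1 gave 30.0 CPM and Drd5 25.5 CPM, so only this library bears on the evenness against the range of Drd1. Drd2, the only detected gene of the Gi-coupled dopamine receptors in the set, varied 3.36-fold on the first scale and 3.10-fold on the second.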
